A study of Rattus norvegicus with 4 samples.

Results

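Macrophage and Fc receptor genes are 10 genes whose transcripts mark macrophages or encode receptors for antibody: Fcgr1a, Fcgr2b, Fcgr3a, Fcer1g, Cd163, Mrc1, Lyz2, Cd68, Csf1r and Cd14. They were chosen by name from the array's own gene names, with older names resolved through the accession of the probe, through a synonym for Fcgr1a (Fcgr1 in the files) or, for Fcer1g and 1 Csf1r probe, through its description. All 10 had a probe, 16 of the 41012 probes on the array, and they are 10 of the 15540 genes that could be named. The 16 probes are the members' whole record here, and 11 of them, belonging to 9 genes, were bright enough and had enough values to be tested.

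F344 rats, which are inbred, gave the RNA, taken from their colon mucosa. The treated rats were fed the polyphenol resveratrol (1 mg/kg/day) over 20 days. They then drank water with 5% dextran sodium sulphate (DSS), which injures the colon lining and causes colitis, over 5 days. The control rats ate standard chow and received the same DSS, so every sample here is from DSS colitis. Each of 4 two-colour arrays compared the RNA of 2 treated rats, in the Cy5 channel, with a control pool in the Cy3 channel. The series describes 8 rats in each group, but the sources used here do not say how many control rats were pooled, nor if a single pool served all arrays. They do not say the age or sex of the rats either. The pool counts as 1 control sample, so the spread between control rats is not part of any test below, and since no dyes were exchanged, a dye effect cannot be told apart from the treatment.

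Fc receptors bind the constant part of antibodies. Fcgr1a encodes a high-affinity receptor for IgG, Fcgr3a a low-affinity one, and Fcgr2b the inhibitory receptor that carries its own inhibitory motif. Fcer1g encodes the common gamma chain, the signalling subunit that the activating receptors need at the cell surface. In the colon these receptors are found mostly on macrophages and other myeloid cells, and FCGR2B also on B cells. Colonic macrophages live in the lamina propria below the epithelium and are replaced from blood monocytes, in larger numbers in colitis. CSF1R is the receptor for the growth factors that keep macrophages alive. CD163 takes up haemoglobin bound to haptoglobin, MRC1 is the mannose receptor, lysozyme degrades bacterial walls, CD68 is a lysosomal membrane protein, and CD14 passes bacterial lipopolysaccharide to Toll-like receptor 4.

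Transcripts of 8 of the 9 tested genes were lower with resveratrol, none was higher, and Cd14 did not pass the test by its brightest probe. The 6 declines measured in both channels lay between 1.46-fold for Fcgr3a and 2.08-fold for Lyz2, those of Fcgr2b and Mrc1 are lower bounds, and the median of the 9 genes was -0.87 on the log2 scale, against 0.02 over all genes. A second Cd14 probe passed in the opposite direction, at 0.73. The count has to be read against a comparison in which much of the array changed: 47.1% of the 18869 tested probes were called, 22.7% lower and 24.4% higher. Of 6993 genes tested with values on 4 arrays, 22.5% were lower on all 4. Of the 9427 tested genes, each represented by its brightest probe, 45.3% were called, 19.6% of all tested genes being lower and 25.7% higher. A probe or gene is called here where its mean log2 ratio differed from 0 with an adjusted p of at most 0.05 in limma.

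The arrays lay on 2 slides, replicates 1 and 2 on one and replicates 3 and 4 on the other. The share of spots well above background ran from 44.1% to 49.2% in the treated channel and from 42.8% to 57.1% in the control channel. Outlier flags removed 3.45% and 4.68% of spots on the first slide and 11.03% and 13.7% on the second. They removed Lyz2 from both arrays of the second slide and the brightest Csf1r probe from replicate 3. Where flagged spots were kept, as given below, the loess normalization was refitted with them. Ratios of probes without a flag therefore shifted too. The number of arrays limits the precision of every value.

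The probes are 60-base sequences of the transcripts, and those of the low-affinity receptors are printed because their genes are close relatives in a single cluster on chromosome 13, where a probe could pick up a neighbour's RNA. The untested probe of the high-affinity receptor Fcgr1a is shown beside them for comparison. The capitals mark hexamers that recur among the highest ratios on the array and are taken up again further down. Sequences are as deposited, 5′ to 3′.
Fcgr1a A_44_P189496: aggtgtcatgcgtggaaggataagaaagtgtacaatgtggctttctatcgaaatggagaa
Fcgr2b A_42_P735417: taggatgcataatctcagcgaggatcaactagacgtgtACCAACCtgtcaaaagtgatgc
Fcgr3a A_44_P306439: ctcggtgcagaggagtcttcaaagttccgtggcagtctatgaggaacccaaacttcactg
Fcgr2a A_44_P482476: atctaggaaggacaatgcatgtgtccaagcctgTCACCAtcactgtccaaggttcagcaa
Fcgr2a A_44_P168405: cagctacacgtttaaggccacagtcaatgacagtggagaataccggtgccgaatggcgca
No pair of the Fc gamma receptor probes on the array shared a run longer than 9 bases. The probes were compared only with each other and not with the transcripts of the neighbouring genes. Whether a probe picks up a neighbour's RNA was therefore not tested. The last pair belongs to the gene that the array files call Fcgr3 and that RefSeq now calls Fcgr2a. By the accession of A_44_P168405 and by the synonym Fcgr3 it is not Fcgr3a, so it is not counted among the 10 genes, but its values are given with them. By the array design's rn3 positions, Fcgr2b lies at chr13:86823279-86823338 and Fcgr3a at chr13:86891369-86891428. The second Fcgr2a probe lies at chr13:86920151-86920210, and Fcer1g at chr13:87308451-87308510. The high-affinity receptor lies elsewhere, at chr2:191057799-191057858 for its tested probe. Whether a probe falls in an exon or an untranslated region is not stated by the files.

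Fcgr1a, the high-affinity IgG receptor, had log2 ratios of -0.95, -0.84, -1.30 and -0.999 on replicates 1 to 4 (A_43_P15904). Its normalized intensity was between 369.9 and 412.7 in the 4 treated samples and between 666.9 and 923.5 in the control channel, with no overlap. The mean was -1.02 ± 0.10 (moderated SE, n = 4; limma adjusted p = 0.00409), 2.03-fold lower. The other Fcgr1a probe had a usable spot on replicate 1 only, at -0.79, and was not tested. When its flagged spots were kept it read -0.78, -0.74, -1.04 and -0.65, all lower, the same direction as the first probe.

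Fcgr2b, the inhibitory receptor, was lower on every array, at -0.81, -0.59, -0.85 and -1.21. Its probe was not well above background in the treated channel on any array and was above it in the control channel on 3. Its intensity lay between 139.7 and 185.2 with resveratrol and between 277.4 and 333.6 in the pool. The measured mean was -0.87 ± 0.12 (n = 4; limma adjusted p = 0.00580). Because the treated signal is only a bound, the decline is given as at least 1.59-fold.

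Fcgr3a, the low-affinity activating receptor, had the smallest decline of the called genes, at -0.48, -0.47, -0.74 and -0.49. The mean was -0.55 ± 0.09 (n = 4; limma adjusted p = 0.00796). Intensities between 354.7 and 556.8 in the treated channel stood beside 520.3 to 773.2 in the control channel. These ranges overlap across arrays, although the treated sample was the lower on each array. With ratios centred on each array's median in place of loess, Fcgr3a was at -0.35 and no longer called (adjusted p = 0.0903), and on the second slide alone it was at -0.62 (adjusted p = 0.0583).

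Fcer1g, the common gamma chain, varied least among the members measured on 4 arrays. Its log2 ratios were -0.79, -0.93, -0.84 and -0.90, with a mean of -0.87 ± 0.08 (n = 4; limma adjusted p = 0.00409). Intensities of 318.2 to 351.6 with resveratrol and 550.8 to 631.0 in the pool did not overlap. The signalling subunit was thus lower by 1.82-fold, beside 2.03-fold for Fcgr1a. The difference between these 2 genes was not tested.

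The 3 probes of Fcgr2a gave different answers. A_44_P482476, the brightest, read 0.66, 0.23, -0.98 and -0.23, with a mean of -0.08 ± 0.26 (n = 4; limma adjusted p = 0.802). A_44_P168405 read -0.92, -0.92, -1.27 and -1.27, with a mean of -1.09 ± 0.10 (limma adjusted p = 0.00409). A_43_P12955 read -0.77, -1.47, -2.05 and -2.30, with a mean of -1.65 ± 0.25 (limma adjusted p = 0.00708). The first probe holds the hexamer TCACCA shown in capitals above, while the other two hold none of the recurring hexamers. Of the 3 probes, 2 therefore measured Fcgr2a as lower on every array, and the brightest gave no call. How many transcripts of the gene each probe sees is not known from the files.

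**Figure D1:**
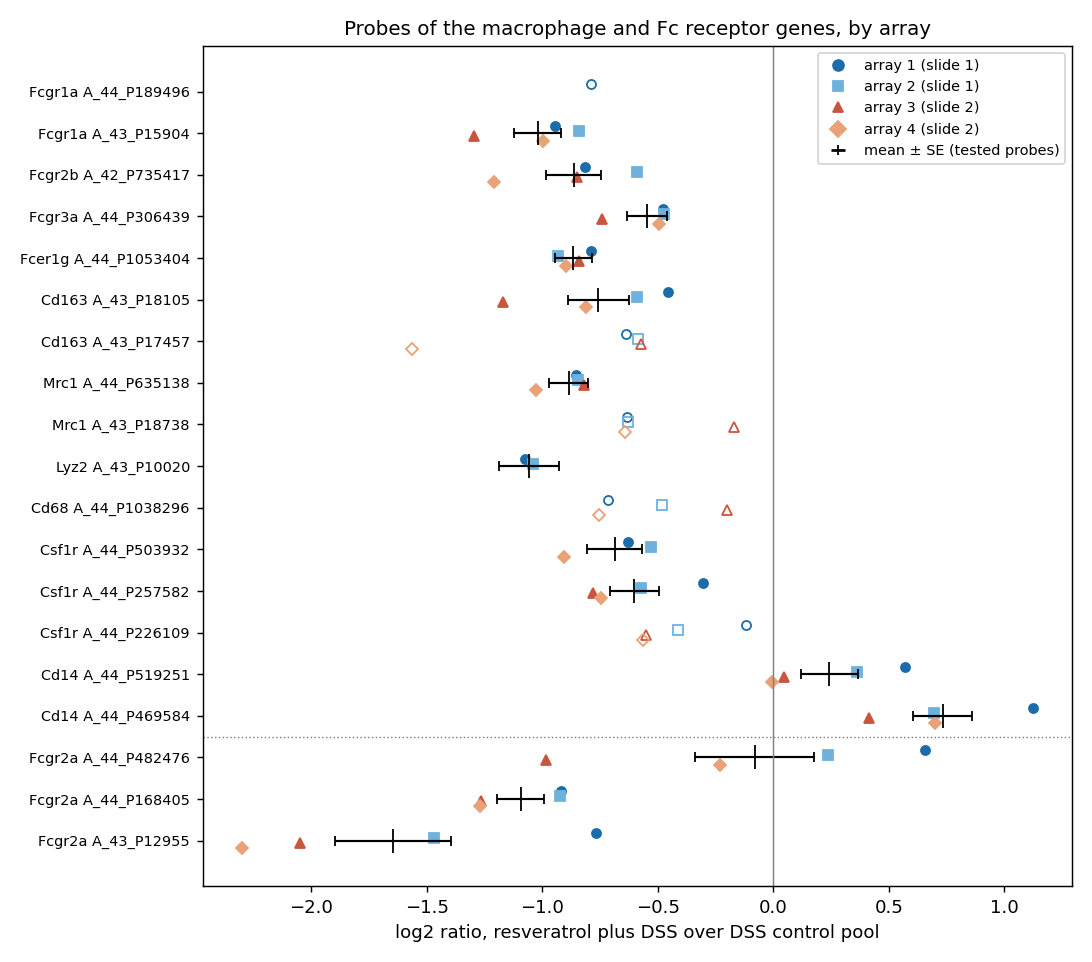
Log2 ratio of resveratrol plus DSS over the DSS control pool (horizontal axis) for each of the 16 member probes and, below the dotted line, the 3 probes of Fcgr2a. Points are arrays by replicate, open where the probe was not tested, and bars are the mean ± moderated SE; 14 of the 16 member probes lie left of 0 on every array with a value, and the 2 Cd14 probes lie at or right of it except for a value of -0.01 on array 4.

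Among the scavenger and pattern receptors, Cd163, the haemoglobin scavenger receptor of resident macrophages, was lower on each array, at -0.46, -0.59, -1.17 and -0.81 (A_43_P18105, chr4:160651701-160651856 on rn3). The mean was -0.76 ± 0.13 (n = 4; limma adjusted p = 0.00969), 1.69-fold lower. Its second probe read -0.64, -0.59, -0.57 and -1.56 but was too dim to be tested. Both probes were lower on all 4 arrays, the farthest value being on replicate 3 for the first probe and on replicate 4 for the second. The standard error leaves out the spread of the control pool. With it multiplied by the square root of 2, the limma adjusted p of the tested probe was 0.0531. That factor treats the pool as varying anew on each array, as the treated samples do. The error of a single pool shared by all arrays would not average out over them, and the factor does not cover it.

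Mrc1, the mannose receptor, was at -0.86, -0.84, -0.82 and -1.03 (A_44_P635138, chr17:88503236-88503295 on rn3), a mean of -0.89 ± 0.08 (n = 4; limma adjusted p = 0.00409). The probe was not well above background in the treated channel on any array and was above it in the control channel on 3, so the decline is given as at least 1.57-fold. Intensities were 146.6 to 181.9 with resveratrol and 263.2 to 325.0 in the pool, and the groups did not overlap. A second Mrc1 probe, above background in neither channel, read -0.63, -0.63, -0.17 and -0.64 and was not tested.

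Lyz2, the lysozyme of macrophages, had values only on the first slide, at -1.07 and -1.04 (A_43_P10020, chr7:56629170-56629966 on rn3). The mean was -1.06 ± 0.13 (n = 2; limma adjusted p = 0.00950), with intensities of 2754 and 2478 in the treated channel against 5802 and 5099 in the pool. On the second slide its spots carried outlier flags. A probe for another gene with a lysozyme-like name, LOC688047, stayed near background throughout and is not counted. With flagged spots kept, the 4 arrays read -0.89, -0.90, -1.09 and -0.63, so the second slide gave the same direction.

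Cd68, the lysosomal glycoprotein used as a general macrophage marker, read -0.72, -0.48, -0.20 and -0.76, lower on every array. Its probe (chr10:56495385-56495444 on rn3) was well above background in the control channel on 1 array and in the treated channel on none, so it was not tested. With the filter on dim probes removed, its mean of -0.54 was called (limma adjusted p = 0.0129). The bound on its fold was 1.02, so the size of any decline cannot be read from this probe.

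Csf1r, the receptor that macrophages depend on for survival, was followed by 3 probes, all lower on every array with a value. The brightest (chr18:57133690-57133749 on rn3) read -0.63, -0.53 and -0.91 on replicates 1, 2 and 4, a mean of -0.69 ± 0.12 (n = 3; limma adjusted p = 0.0125). The second (A_44_P257582) read -0.31, -0.57, -0.78 and -0.75, a mean of -0.60 ± 0.11 (n = 4; limma adjusted p = 0.0101). The third, too dim to be tested, read -0.12, -0.41, -0.55 and -0.56. The brightest probe lost its call with median centring, at -0.32 (adjusted p = 0.180), and without replicate 1, at -0.72 (adjusted p = 0.0544). With the standard error multiplied by the square root of 2, its adjusted p was 0.0596.

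Cd14, the co-receptor for lipopolysaccharide, stood apart from the other 9 genes. Its brightest probe (A_44_P519251, chr18:29402416-29402475 on rn3) read 0.57, 0.36, 0.05 and -0.01, a mean of 0.24 ± 0.12 (n = 4; limma adjusted p = 0.137). As processed here, the first slide was higher than the pool and the second was level with it. With flagged spots kept and loess refitted, this probe read 0.66, 0.46, 0.56 and 0.44, higher on both slides. Flags had removed none of its 4 values, so its level on the second slide depends on the loess fit. The other probe (A_44_P469584, chr18:29401636-29401695 on rn3) read 1.12, 0.70, 0.41 and 0.70, a mean of 0.73 ± 0.13 (n = 4; limma adjusted p = 0.00949), 1.66-fold higher. Its intensity was 1057 to 1970 in the treated channel and 650.5 to 904.1 in the pool, with no overlap.

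The pair of Cd14 probes differed by a mean of 0.49 (SD 0.17, n = 4), the second being higher on each array, with an exact two-sided sign-flip p of 0.125, the smallest that 4 arrays allow. Neither holds a recurring hexamer. The second probe lost its call on the second slide alone, at 0.56 (adjusted p = 0.0691), and with the standard error multiplied by the square root of 2 (adjusted p = 0.0523). The call of the brightest probe turned on the processing. It was called higher with outlier-flagged spots kept (0.53, adjusted p = 0.00419) and with median centring (0.66, adjusted p = 0.000619). It was also called higher on the first slide alone (0.46, adjusted p = 0.00822) and with array weights (0.32, adjusted p = 0.0485). On the second slide alone it was at 0.02 (adjusted p = 0.925). With a gene taken as the mean of all its probes, Cd14 was called higher, at 0.49 (adjusted p = 0.0228).

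The contrast between Cd14 and the rest can be set within arrays, where both probes share the same RNA and the same pool. The brightest Cd14 probe lay above each of the 9 other tested member probes on every array with both values. Its means above them ran from 0.79 (Fcgr3a) to 1.52 (Lyz2, first slide only). The second Cd14 probe lay above them by 1.28 (Fcgr3a) to 1.97 (Lyz2, first slide only). Among probes compared on all 4 arrays, the largest means were 1.26 and 1.75, both for Fcgr1a. Of the 18 exact sign-flip tests, those over 4 arrays gave p = 0.125, their smallest possible value, and after Benjamini-Hochberg adjustment the values ran from 0.161 to 0.5. The sign-flip test therefore cannot reach 0.05 here, and no other test of this contrast was run.

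**Figure D2:**
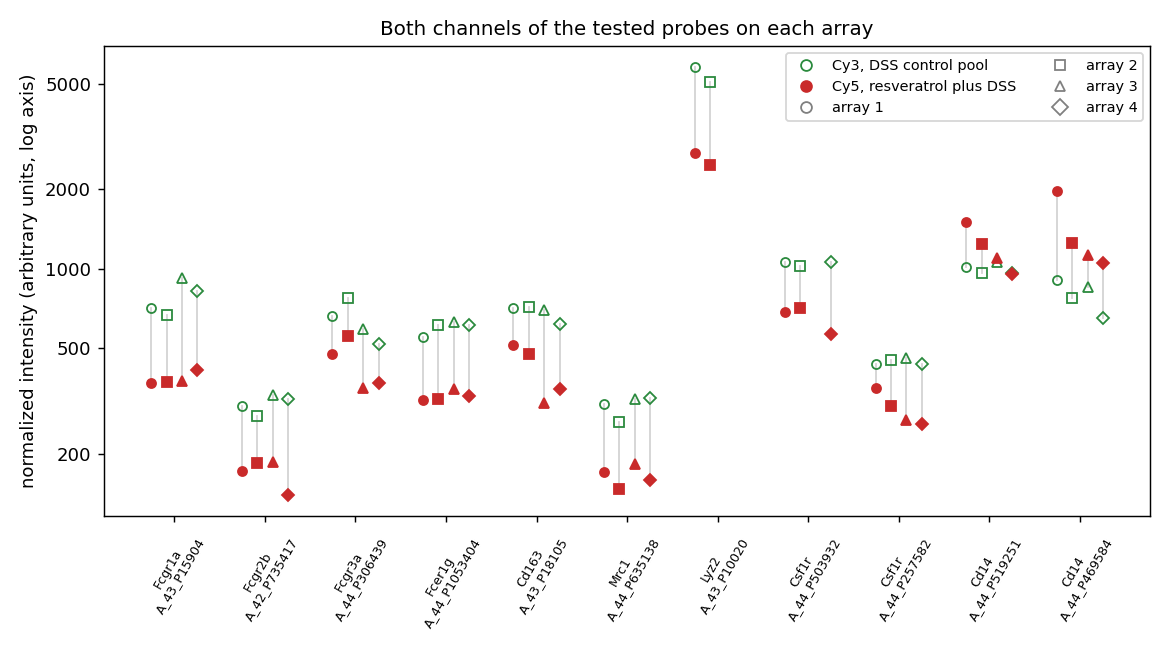
Normalized intensity (vertical log axis, arbitrary units) of the 11 tested member probes in both channels of each array, open symbols for the DSS control pool and filled symbols for resveratrol plus DSS, with a line joining the channels of an array. The filled symbols lie below the open ones for every probe except those of Cd14; levels of different probes are not comparable.

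In whole mucosa, fewer cells of a type and less RNA per cell cannot be told apart. Markers of other cell types moved as well, and they are given here because these cells share the tissue and some share the receptors. Neutrophils carry Fcgr3a and Fcer1g, and of 5 tested neutrophil markers 3 were lower and 1 higher, with S100a8 at -3.17 ± 0.23 (limma adjusted p = 0.00388) and S100a9 at -2.06 ± 0.27 (limma adjusted p = 0.00546). The summed intensity of the 4 neutrophil markers with values on all arrays was 1636 to 4638 with resveratrol and 8331 to 12927 in the pool. Most of the pool's sum came from S100a8 and S100a9. Of the 13 neutrophil markers on the list, Mpo, Elane, Camp and the chemokine receptors Cxcr1 and Cxcr2 were among those not tested. Mast cells use Fcer1g for their IgE receptor, and all 5 tested mast cell markers were lower, with Hdc at -1.40 and Tpsab1 at -1.07. On replicate 3 these read -3.01 and -2.46, but -0.33 and -0.28 with flagged spots kept and loess refitted. Both probes also had values on all 4 arrays with flagged spots left out. The summed intensity of the 3 mast cell markers with values on all arrays was 13095 to 33761 against 36704 to 91956 in the pool. Hdc and Tpsab1 made up most of these sums. On replicate 3 they were at 8163 and 4692 with resveratrol and at 65812 and 25814 in the pool, so that array set the lowest treated and the highest pool sum. Of 9 tested T and NK cell markers 6 were lower, with a median of -0.45 and sums of 1767 to 2109 against 1959 to 2742. The 3 tested B and plasma cell markers had no call (median -0.22), and of 4 dendritic cell markers 2 were lower and 1 higher (median -0.33). Among structural cells, 5 of 6 fibroblast markers were lower, with a median of -1.18 and sums of 1825 to 3511 against 8538 to 11816. Of 5 endothelial markers 4 were lower, with a median of -0.49, and all 3 erythrocyte markers were lower, with a median of -0.66. Of 12 epithelial markers none was lower and 7 were higher, with a median of 0.72 and a summed intensity of 44964 to 88851 against 27000 to 45629 in the pool. With median centring, 2 of the 5 mast cell, 2 of the 5 endothelial and none of the dendritic cell markers were lower, and all 12 epithelial markers were higher. The part that these cells have in the members' values was not tested.

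Other macrophage markers were measured for comparison with the members. Of 33 on the list, 27 had a probe, 15 were tested, 9 were lower and 1 was higher, with a median of -0.42. The lower genes included Trem2, a lipid-sensing receptor of tissue macrophages, at -1.15 ± 0.36 (limma adjusted p = 0.0421), which read -0.57, -0.49, -2.63 and -0.92. Folr2, a folate receptor of resident macrophages, was at -0.78 ± 0.16 (limma adjusted p = 0.0146), and Gpnmb, a lysosome-linked glycoprotein, at -0.91 ± 0.13 on 2 arrays (limma adjusted p = 0.0131). Both Trem2 and Folr2 were lower on all 4 arrays. With flagged spots kept and loess refitted, Trem2 read -0.66 on replicate 3.

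C1q, the recognition protein of the classical complement pathway, binds antibody as Fc receptors do and is made largely by macrophages. C1qa was lower at -0.42 by its brightest probe (limma adjusted p = 0.0295), and C1qb was at -0.40 (limma adjusted p = 0.0967). With flagged spots kept and loess refitted, that C1qa probe read -0.04, -0.24, 0.06 and -0.12. C1qb then read -0.16, -0.09, -0.08 and 0.08. A second C1qa probe was at -0.49 without a call (limma adjusted p = 0.0861), and with flagged spots kept it was lower on every array. The brightest C1qc probe was higher, at 1.37, 0.67, 0.91 and 1.93 with a mean of 1.22 ± 0.21 (limma adjusted p = 0.00901), and it holds 2 of the recurring hexamers. A second C1qc probe, with none, read -0.44, -0.52 and -1.24 on replicates 1, 2 and 4 and was called lower, at -0.73 ± 0.18 (limma adjusted p = 0.0298). C1qc was the one higher gene on the list, and its probes were called in opposite directions. Ptprc, the CD45 of all white blood cells, also split: its brightest probe was at 0.20 ± 0.14 (limma adjusted p = 0.260) and another at -0.71 ± 0.10 (limma adjusted p = 0.00590). The classical markers Adgre1 and Itgam were too dim to be tested, at -0.02 to -0.36 and -0.13 to -0.70.

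Of 12 other Fc receptors on the list, 9 had a probe and 5 were tested, with none lower and 1 higher by their brightest probes. Fcgr2a is among the 5, and its other probes, given above, were called lower. Fcgrt, the neonatal Fc receptor that carries IgG across epithelium, was at 0.67, 0.50, 0.62 and 0.62, a mean of 0.60 ± 0.08 (limma adjusted p = 0.00546). Pigr, which carries IgA across epithelium, was at 0.81 on 3 arrays and did not pass (limma adjusted p = 0.0714). Fcer2, the low-affinity IgE receptor, was at -0.04 (limma adjusted p = 0.739). The median of the list was 0.29, and with median centring 4 of the 5 genes were called higher.

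Signalling genes downstream of the Fc receptors were mostly without a call: of 15 tested, 2 were lower and none higher, with a median of -0.12. Tyrobp, an adaptor related to Fcer1g, was at -0.45, -0.34 and -0.71 on replicates 1, 2 and 4, a mean of -0.50 ± 0.12 (limma adjusted p = 0.0258). A second Tyrobp probe read -1.001, -0.70, -1.54 and -1.88, a mean of -1.28 ± 0.20 (limma adjusted p = 0.00747). Both Tyrobp probes were lower on every array with a value, but the brighter one lost its call in 7 of 22 alternatives, among them median centring, where it was at -0.04 (adjusted p = 0.901). Btk, a tyrosine kinase, was at -0.32 ± 0.09 (limma adjusted p = 0.0285). Syk, the kinase that binds the phosphorylated gamma chain, was too dim to be tested and read between 0.10 and 0.49.

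**Figure D3:**
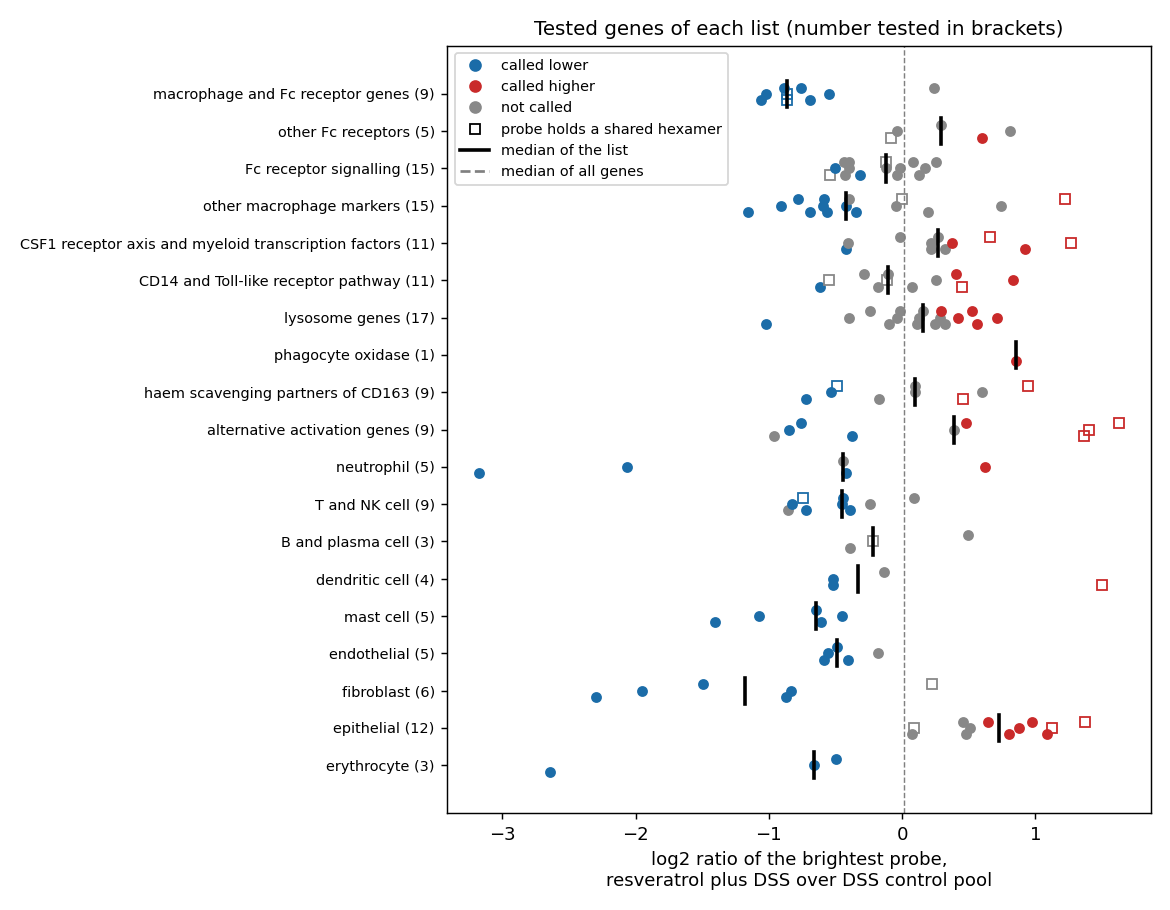
Log2 ratio (horizontal axis) of each tested gene, by its brightest probe, in the member list, 9 pathway lists and 9 cell type lists; colours give the call at an adjusted p of 0.05, open squares mark probes that hold a recurring hexamer, and bars are list medians. The member median of -0.87 lies left of that of every pathway list, and the fibroblast median of -1.18 lies farther left.

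Growth factors, their receptors and transcription factors of the macrophage lineage were mostly without a lower call. Of 11 tested, 1 was lower and 4 were higher, with a median of 0.27, and with median centring 8 were higher. Cebpb, a transcription factor of inflammatory myeloid cells and of epithelium, was at 0.92 ± 0.14 (limma adjusted p = 0.00700). Csf2, the cytokine GM-CSF, was at 1.27, and Csf2rb, its receptor subunit, at 0.66, but both probes hold recurring hexamers. Csf3r, the G-CSF receptor of neutrophils, was at -0.42 (limma adjusted p = 0.0372). Spi1, which encodes the myeloid transcription factor PU.1, was at 0.26 and 0.29 on the first slide, a mean of 0.27 ± 0.13 (n = 2; limma adjusted p = 0.151). Csf1, the ligand of CSF1R, was too dim to be tested, and its probes read between -0.25 and -0.59.

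Along the lipopolysaccharide pathway of CD14, 1 of 11 tested genes was lower and 3 were higher, beside 19.6% and 25.7% of all tested genes. Lbp, the plasma protein that hands lipopolysaccharide to CD14, was at 1.09, 0.91, 0.64 and 0.68, a mean of 0.83 ± 0.11 (limma adjusted p = 0.00515). Tlr4, the signalling receptor, was at 0.18, 0.69, 0.28 and 0.48, a mean of 0.41 ± 0.11 (limma adjusted p = 0.0287), and it lost its call without replicate 1, 2 or 4, on the second slide alone (adjusted p = 0.121), with the larger standard error (adjusted p = 0.112) and with slide as a random block (adjusted p = 0.0520). Both were higher on all 4 arrays, as was the second Cd14 probe. The Tlr4 probe was dim, well above background in the control channel on 1 array and in the treated channel on 3. Myd88, the adaptor, was at 0.45, with a probe that holds recurring hexamers. Tlr9, a receptor for bacterial DNA, was lower at -0.62 (limma adjusted p = 0.00896). Its probe was not well above background in the treated channel on any array, and its lower bound of 1.53-fold is the measured fold itself.

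Lysosomal genes, whose products share the organelle with CD68, had 1 of 17 tested lower and 5 higher, with a median of 0.16. Ctsl, cathepsin L, was at -1.02 ± 0.22 (limma adjusted p = 0.0169), and a second probe of it was at -0.47 without a call. Ctss, a cathepsin of antigen-presenting cells, was at 0.71 ± 0.10 (limma adjusted p = 0.00584), and Lamp1, a membrane protein of all lysosomes, at 0.53 ± 0.09 (limma adjusted p = 0.00902). Cyba, the only tested subunit of the phagocyte oxidase, was higher at 0.86 ± 0.08 (limma adjusted p = 0.00409). Cybb, another subunit, had a usable value on replicate 2 only, at -0.71, and was not tested. With flagged spots kept Cybb read -0.51, -0.57, -1.11 and -0.21.

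Of 9 tested partners of CD163 in haem handling, 3 were lower and 2 higher. Blvrb, a biliverdin reductase, was at -0.72 on 3 arrays (limma adjusted p = 0.0138), and Hp, haptoglobin, at -0.54 (limma adjusted p = 0.00742). Hmox1, haem oxygenase 1, was at -0.49 on 2 arrays (limma adjusted p = 0.0438), with a probe that holds a recurring hexamer. Hbb, the haemoglobin chain that CD163 clears, was at -2.65 ± 0.12 (limma adjusted p = 0.00101). Ferritin light chain Ftl1 was at 0.94, with a probe that holds a recurring hexamer. Its probes without one were also called higher, at 0.60 (limma adjusted p = 0.0160) and 0.63 (limma adjusted p = 0.0365). Its other probes with one were at 0.999 (limma adjusted p = 0.0121) and 0.22 (limma adjusted p = 0.202). Of 9 tested genes of alternative activation, the programme that also raises Mrc1, 3 were lower and 4 higher. Arg1, arginase 1, was at -0.85 ± 0.12 (limma adjusted p = 0.00619). Il4r, Tgfbi and Chia were the farthest higher, at 1.62, 1.40 and 1.37, and all 3 probes hold recurring hexamers. A second Tgfbi probe was at -0.40 (limma adjusted p = 0.182).

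The hexamers are short stretches that recur in the probes with the highest ratios. Among the 200 highest probes, 12 hexamers, such as CACCTC, each occurred at least 30 times and at least 5 times as often as in all tested probes. At least 1 of them was held by 84.5% of those 200 and by 15.8% of all tested probes, and the median log2 ratio was 0.08 with one and -0.04 without. They were chosen after the data were seen and from the highest probes themselves, so the first share is partly built in. Over the 9 pathway lists, 93 of 150 genes were tested, 21 were called higher and 20 lower. Of these, 9 of the 21 higher and 1 of the 20 lower were measured by a probe with such a hexamer. Over the whole array, leaving out such probes gave 3752 called higher and 3927 lower, in place of 4597 and 4289. Among the members, Fcgr2b, Fcer1g and the dim Mrc1 probe hold one. With all such probes left out, 6 of 7 tested members were lower, and their median was -0.76. What part the hexamers have in the higher calls was not tested.

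PU.1, the product of Spi1, binds purine-rich sites with the core GAGGAA in many myeloid promoters. In RefSeq promoters of build GRCr8, the 250 bases before the start held GAGGAA on either strand, which reads TTCCTC on the other, in 6 of the 7 members with an entry. It occurred in 23.2% of 27457 promoters of the same length and in 23.0% of those of 7665 tested genes. Cd163 had no match. Stretches of 30 bases, with the motif in capitals, are shown for the 4 members whose match lies nearest the start.
Fcgr3a, 54 bases before the start, chr13:85782570-85782599, + strand: aaagctatttacTTCCTCtcttctagccaa
Mrc1, 35 bases before the start, chr17:82157678-82157707, + strand: aaaagagacagcTTCCTCtcttctcctttt
Lyz2, 46 bases before the start, chr7:54798040-54798069, - strand: ctgtcaggaaagGAGGAActtggaggatgc
Cd68, 27 bases before the start, chr10:54882451-54882480, - strand: aagagttttcatTTCCTCttccaagagaag
Cd14 has the motif at 140 and 105 bases before its start, so the gene without a lower call holds it too. A match of 6 letters is a description of the sequence and not a binding site.

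The lower calls held in most alternative settings. Across 22 alternatives, between 6 and 9 of the members were called lower and none changed direction. Fcgr1a, Fcgr2b, Fcer1g, Mrc1 and Lyz2 were called lower in each alternative that gave them a value. The normalization matters most for how the background is read: with ratios centred on the array median in place of loess, the median of all probes moved from -0.02 to 0.20, and 6852 probes were called higher and 1839 lower, in place of 4597 and 4289. Under that setting 6 of 9 members were lower, and their median was -0.58. The lists shifted with it: Fc receptor signalling genes went from 2 lower and none higher to none lower and 2 higher, other macrophage markers from 9 lower and 1 higher to 5 and 3, and lysosome genes from 5 higher to 12. By slide, the first alone gave 8 of 9 lower and the second 6 of 8, and the medians of the members were -0.70 and -0.90.

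**Figure D4:**
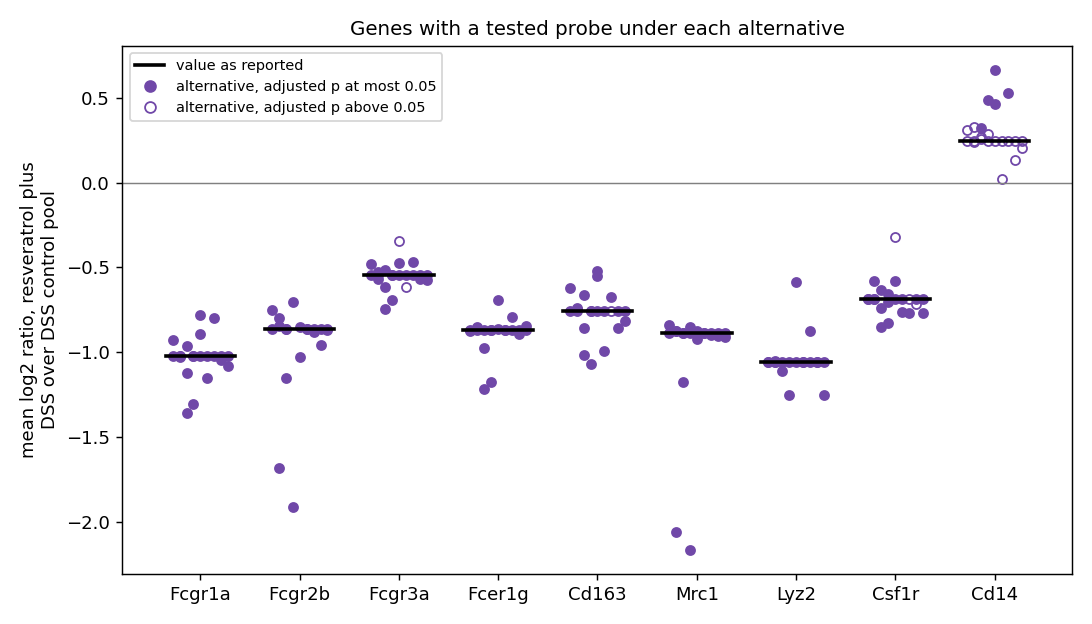
Mean log2 ratio (vertical axis) of the 9 members with a tested probe, as reported (bars) and under each of 22 alternatives (points, filled where the adjusted p was at most 0.05). Every value of the 8 lower genes stays below 0, and every value of Cd14 stays above 0, filled in 5 of 22 settings.

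In the authors' deposited table, on the log2 scale and in the same direction, the values of Fcgr1a were -1.38, -1.07, -1.74 and -1.25. In the authors' deposited table Mrc1 was at -2.22, -1.95 and -2.0 on replicates 1 to 3, and the second Cd14 probe at 1.19, 0.75, 0.68 and 0.79. The dim probes moved most with the background correction. Mrc1 had a mean of -0.89 with an offset of 50, -1.18 with an offset of 0 and -2.16 from the scanner's processed signals, and Fcgr2b of -0.87, -1.15 and -1.91, so the size of their decline depends on how background was removed. With the authors' deposited table in place of the scanner values, 8 of 9 members were again called lower, with a median of -1.22.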

How the data were processed

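RNA from colon mucosa was measured on two-colour Agilent arrays, with Cy5 for resveratrol plus DSS and Cy3 for the control pool on all 4. Per the file headers, the deposited spot intensity values come from Agilent Feature Extraction 9.5.3.1, whose processed intensity is already background-subtracted and dye-normalized. The deposited log10 ratios, within 0.001 of those of the processed signals for 74.0% of spots, were not tested. The authors' deposited table of log2 ratios followed the scanner's log2 ratios (r between 0.98 and 0.99, slopes between 0.97 and 1.00), which gave its scale and direction. Its column medians were -0.01, -0.01, 0.09 and -0.02, and its centring is unknown. Both limma and Agilent Feature Extraction are named in the submitters' processing notes.

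Mean spot signals were corrected against the local background median with normexp (offset 50) and normalized by loess within arrays (limma 3.58.1, R 4.3.3). Weight 0 was given to controls and to spots with an outlier flag, and a probe's spots were averaged. Of 41012 probes, 20409 had signal well above background in 1 channel or both on 3 arrays or more, and 18869 of them had at least 2 values and were tested. Mean log2 ratios were tested against 0 with lmFit and eBayes, two-sided, adjusted by Benjamini-Hochberg at 0.05, and values after ± are moderated standard errors. A gene is represented by its brightest tested probe. Lower bounds compare the pool's normalized mean with the larger of the dim probe's own signal and the lowest signal well above background, per channel after loess and Aquantile, and without dye swaps they are open to dye bias. Names came through a RefSeq gene table by accession (10735 probes), another accession (117), symbol (5537) or synonym (3705). Numbers of replicates follow accession order, and slides were read from the array identifiers.

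The members and the gene lists were chosen with earlier results of these data known. Named genes are all members, up to 4 called genes per list with the largest absolute ratio and 1 sign on every array (at least 1 in each direction), Tyrobp, Syk, Spi1, Csf1, Tlr4, Itgam, Ptprc and Adgre1. C1qa, C1qb, Pigr, Fcer2, Fcgr2a, Cybb and second or further probes were added after their values were seen. The fit was also run on simulated ratios with known shifts and independent noise on each array. The simulated ratios held no shared pool, dye or slide effect, so they do not cover those limits. Alternatives changed background correction, normalization, filters, prior, weights, slide, replicates and source table.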

Additional observations from a re-analysis of the deposited data

Results flagged for a closer look

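Fcgr3a on replicate 3 lay apart from the other arrays. Its log2 ratio there was -0.74, against -0.48, -0.47 and -0.49 on replicates 1, 2 and 4, and the gap to the nearest value was 0.925 of the whole range, above Dixon's critical value for 4 values. It was the only one of 12 probes checked that passed this limit, which chance passes in about 1 group in 20. Without replicate 3, Fcgr3a was at -0.48 and still called lower (limma adjusted p = 0.0107).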

How the results depend on the processing

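No paired analysis was possible because the samples form 1 group and the control is a pool. The direction of every member's mean and the count of members called lower (6 to 9) held under the 22 alternatives, of which leaving out probes with a shared hexamer was chosen after seeing the data. The median of the members, -0.87 as reported, was -1.17 with scanner-processed signals, -0.58 with median centring, -0.70 on slide 1 alone and -1.22 with the value table of the authors, and leaving out 1 replicate gave -0.87 to -0.75. Of all probes, 8886 were called, but 4551 under a filter that asks for signal above background in both channels of every array, 1749 on slide 2 alone, 2180 with the standard error multiplied by the square root of 2, and 3410 to 8964 with 1 replicate left out, the lowest counts being those without replicate 2 (3410) and without replicate 1 (3463). Of the pathway genes, 20 were called lower, but 13 with median centring, 11 with both channels above background, 7 on slide 2 alone, 3 with the larger standard error and 7 to 20 with 1 replicate left out, 8 without replicate 1 and 7 without replicate 2. With slide as a random block (correlation 0.22) 8 of 9 members stayed called. Signal over background limits Fcgr2b and Mrc1 to lower bounds and Cd68 to no size.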
